A study of Mus musculus with 15 samples.

Results

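The genes described are those that encode the proteins of the splicing machinery by name: SR proteins (SRSF), heterogeneous nuclear ribonucleoproteins (HNRNP), proteins of the small nuclear ribonucleoprotein particles or snRNPs (SNRP and SNRNP), LSm proteins (LSM) and the SF3A and SF3B subunits. They were taken by symbol from both deposited count tables, which gave 78 genes of 56967. They are called splicing genes below by symbol, although some LSm proteins among them work outside splicing. Names of processed copies, symbols that end in P and a number, were left out (124 names), whereas the 7 SNRNP genes, whose own symbols also end that way, were kept. Without those 7 the rule would leave 71 genes. By role, 8 encode the Sm core, 3 the U1 snRNP, 11 the U2 snRNP with SF3A and SF3B, 3 the U5 and U4/U6 particles, 3 the minor spliceosome, 13 LSm proteins, 12 SR proteins and 25 hnRNP proteins.

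Polyadenylated RNA was sequenced in 15 libraries of cells labelled MDA-MB-468, an established breast carcinoma line of the basal type, with 3 libraries in each of 5 groups. The cells carried a short hairpin RNA against TMEM45A (set 2 or set 4), a short hairpin RNA against SHCBP1 (shSHCBP1_2 or shSHCBP1_1), or the control hairpin sh_NC (NC). The columns number the shTMEM45A sets 2 and 4 and the labels number them 1 and 2, so that set 4 was tied to its label by elimination. Separate cultures are not mentioned for the libraries of a group, so the p-values speak for the spread among these libraries, which can be technical. The NC and shSHCBP1 libraries stand in a table together and the shTMEM45A libraries in another, so in every comparison of shTMEM45A with NC or with shSHCBP1 the hairpin and the table cannot be told apart.

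Introns are removed by the spliceosome, which is built from the U1, U2, U4, U5 and U6 snRNPs. A ring of Sm proteins sits on each of their RNAs except U6, which carries a ring of LSm proteins instead. U1 reads the start of the intron, U2 with SF3A and SF3B reads the branch site, and the U4/U6 and U5 particles then join. SR proteins bind exons and mostly favour their inclusion, while hnRNP proteins coat the transcript and often oppose it. A separate minor spliceosome with U11 and U12 removes a rare class of introns.

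The libraries held 13780294 to 16484000 counts. Levels are given as CPM, counts relative to the library total after TMM scaling. Changes are log2 fold changes from edgeR's quasi-likelihood test over 19051 genes, called at an adjusted p under 0.05. TMEM45A itself averaged 19.4 ± 0.761 CPM in set 2, 17.8 ± 1.86 CPM in set 4 and 26.6 ± 2.09 CPM in NC (SD, n = 3 each), a log2 change of -0.46 in set 2 and -0.58 in set 4. It was called lower in both sets, as were 39.8% of all genes tested in set 2 and 38.9% in set 4. In the shTMEM45A libraries SHCBP1 was called higher than in NC, with a log2 change of 0.35 (edgeR adjusted p = 1.87e-05). SHCBP1 averaged 44.3 ± 1.12 CPM in shSHCBP1_2 and 47.1 ± 1.24 CPM in shSHCBP1_1, against 44.1 ± 2.53 CPM in NC (SD, n = 3 each), and was not called lower in either set (edgeR adjusted p = 0.962 and 0.412). What follows therefore speaks of the libraries labelled shSHCBP1. Of 20 epithelial and basal breast markers, KRT5, KRT6A, KRT6B and KRT16 had no count in any library. The summed level of those 20 was 323 to 368 CPM in shTMEM45A libraries, 173 to 188 CPM in shSHCBP1 libraries and 162 to 165 CPM in NC libraries. KRT8 and KRT18, the most abundant of them, averaged 163 and 157 CPM in set 2 and 168 and 144 CPM in set 4. Their NC averages were 79.3 and 44.5 CPM. EGFR and CDH1 went the other way, at 6.96 to 9.65 and 5.63 to 9.6 CPM in shTMEM45A libraries. NC libraries held 15.2 to 17.5 and 10.6 to 12.8 CPM of them, so the sum does not speak for the whole list. A list of 8 neurofilament and embryonic kidney line markers summed to 338 to 398 CPM in shTMEM45A libraries, 538 to 591 CPM in shSHCBP1 libraries and 600.0 to 614 CPM in NC libraries. In NC and shSHCBP1 libraries this sum was above that of the 20 epithelial and basal markers. The labelled identity of the cells is therefore uncertain, and whether they are MDA-MB-468 was not tested. PTPRC, the pan-leukocyte marker, was at 0 in every group. The part of these differences in the results below was not tested, and fewer cells of a type and less RNA per cell cannot be told apart in bulk RNA.

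In shTMEM45A libraries 66 of the 73 splicing genes that passed the count filter were called different from NC, in directions that varied with the role. The Sm core, the U1 proteins and the LSm ring proteins were higher, while SF3B1, the U5 helicase SNRNP200 and most of the called hnRNP genes were lower. Of the 73 genes, 37 were called higher and 29 lower. Among all genes tested, 37.3% were called higher and 41.3% lower; a count of calls near these shares is no result about splicing genes. The median log2 change was 0.13 over the 73 genes and -0.05 over all genes tested. More than 2-fold changes were called for 20 of the 73 in the higher direction (27.4%, against 19.6% of all genes tested) and for 8 in the lower direction (11%, against 21.1%). Set 2 gave 36 higher and 29 lower, where 36.1% and 39.8% of all genes were called. Set 4 gave 41 higher and 30 lower, where 35.6% and 38.9% were called. Under each of the 4 scalings tried (TMM, DESeq2's size factors, upper quartile and library totals), 35 genes were higher and 29 lower. Library totals alone gave 35 higher and 34 lower and moved the median of all genes tested to -0.24. With a trend of the change with transcript length subtracted, 29 were higher and 34 lower of the 71 genes with a length. In that fit 5009 of all 12715 genes were called higher and 4762 lower. The genes whose call this subtraction ended or turned are named with the account of length.

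In the libraries labelled shSHCBP1 the changes were small and mostly downward, led by hnRNP genes. Of the 73 genes, 6 were called higher and 30 lower, where 15.2% and 15.9% of all genes tested were called. None was called with more than a 2-fold change, against 2.25% of all genes in the higher and 0.866% in the lower direction. The median log2 change was -0.09 over the 73 genes and 0.01 over all genes tested. The shSHCBP1_2 libraries gave 8 higher and 31 lower, with 15.6% and 15.4% of all genes called. The shSHCBP1_1 libraries gave 2 higher and 23 lower, with 9.34% and 10.5% called. These counts depended on the scaling: library totals without TMM gave 19 higher and 14 lower and moved the median of all genes to 0.16, and DESeq2's size factors in edgeR gave 3 higher and 47 lower. Under each of the 4 scalings tried, 14 genes were lower and 3 were higher, and these are named with their roles below. Both targets share the NC libraries, so a direction that the 2 comparisons have in common is not independent.

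**Figure D1:**
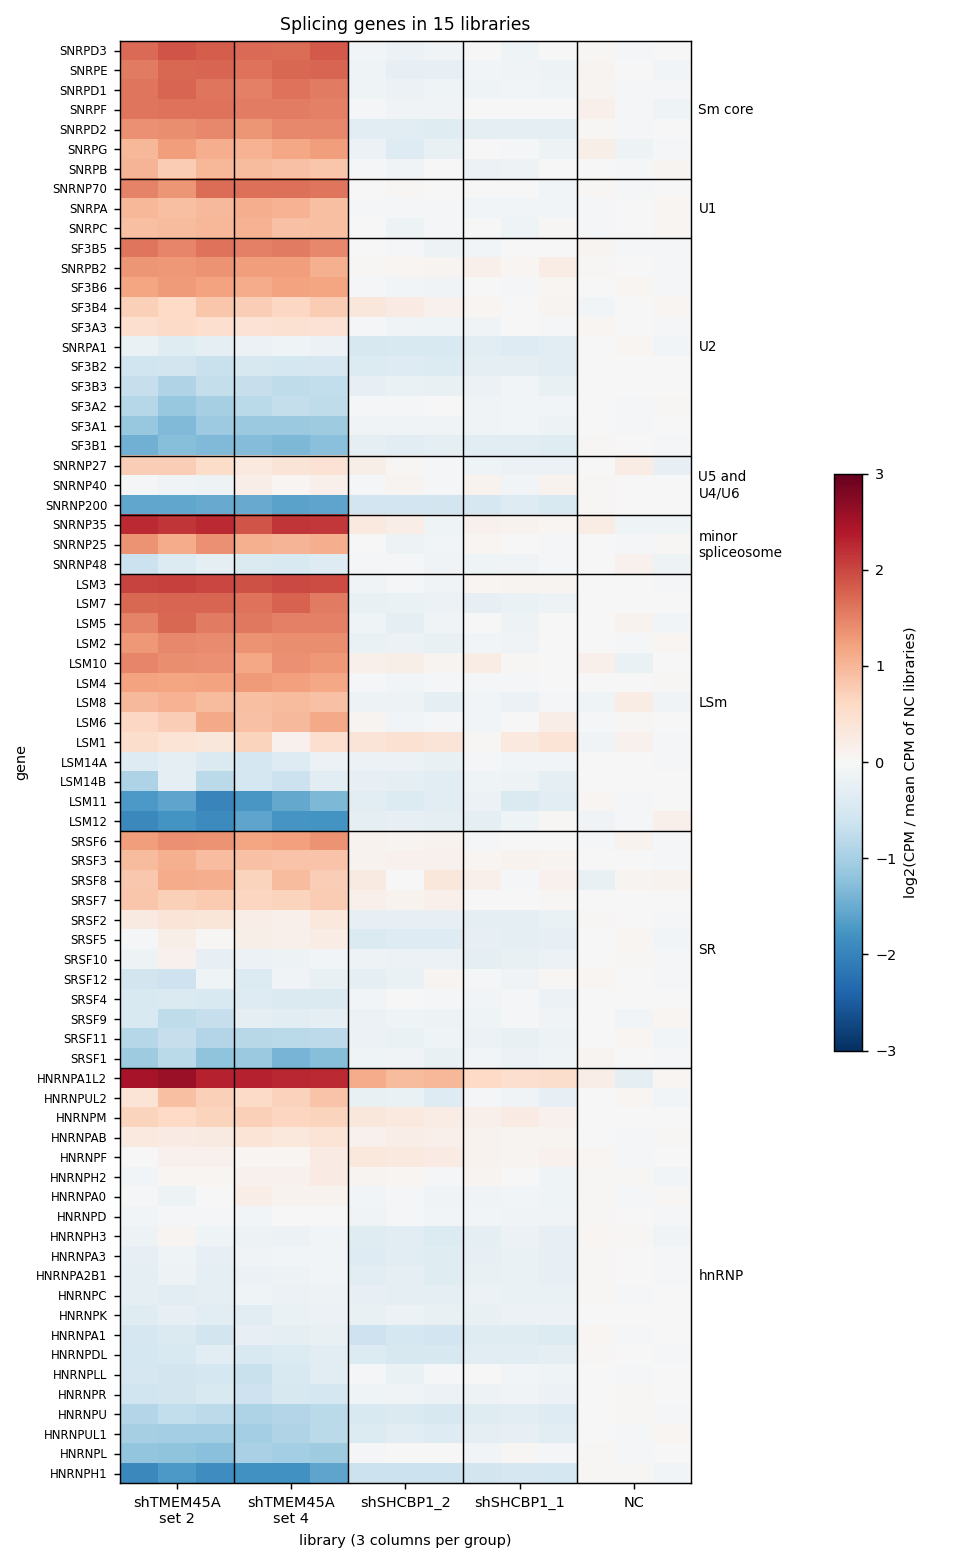
Level of each of the 73 splicing genes tested (rows, grouped by role) in each of the 15 libraries (columns), as log2 of CPM over the mean of the NC libraries; red is higher and blue is lower than NC. The Sm core, U1 and most LSm rows are red in the 6 shTMEM45A libraries, and the shSHCBP1 columns are pale.

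The Sm core was called higher in shTMEM45A libraries in each of its 7 tested genes, where 37.3% of all genes tested were called higher. SNRPD3, SNRPD1 and SNRPD2 encode the D proteins of the Sm ring, and SNRPE, SNRPF and SNRPG close it together with SNRPB. SNRPD3 had 639, 720.4 and 695 CPM in set 2 and 637, 625 and 704 CPM in set 4 of the shTMEM45A libraries, against 201, 189 and 197 CPM in NC libraries. No shTMEM45A library overlapped NC, and the log2 change was 1.77 ± 0.05 (SE, edgeR adjusted p = 3.26e-24). SNRPB had 919, 764 and 905 CPM in set 2 and 879, 829 and 805 CPM in set 4 of the shTMEM45A libraries, against 450.1, 436 and 477 CPM in NC libraries, with a log2 change of 0.90 ± 0.05 (SE, edgeR adjusted p = 1.22e-16), the smallest of the 7. The other 5 lay between 1.13 (SNRPG) and 1.69 (SNRPE). As a share of all counts, the Sm core took 0.36% in set 2, 0.352% in set 4 and 0.157% in NC (means of 3 libraries). In the libraries labelled shSHCBP1 the share was 0.156% and 0.158%, and SNRPD2 was the Sm gene with the largest change. It had 304, 301 and 297 CPM in shSHCBP1_2 and 316, 309.5 and 317 CPM in shSHCBP1_1, against 389.7, 364 and 386 CPM in NC, without overlap, and a log2 change of -0.31 ± 0.04 (SE, edgeR adjusted p = 6.31e-08). SNRPD1 (-0.13) and SNRPE (-0.16) were also called lower there, as were 15.9% of all genes tested. SNRPE lost its call without NC replicate 1, and SNRPD1 without NC replicate 1, shSHCBP1_1 replicate 1 or 3, or shSHCBP1_2 replicate 2 (edgeR adjusted p up to 0.121 for SNRPE and 0.24 for SNRPD1). SNRPN, the imprinted relative of SNRPB, had 0 counts in all libraries, which allows up to 0.229 CPM in the library with the highest limit (3 counts, counting error only). SNURF, which shares its transcript with SNRPN, was also at 0, and how reads of overlapping genes were counted is not given in the sources used here.

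All 3 U1 genes were called higher in shTMEM45A libraries, where 37.3% of all genes tested were called higher. SNRNP70 encodes the U1-70K protein, which holds on to the U1 RNA and contacts SR proteins. It had 1369.9, 1232 and 1565 CPM in set 2 and 1537, 1531 and 1495 CPM in set 4 of the shTMEM45A libraries, against 499.9, 478 and 493 CPM in NC libraries. The lowest shTMEM45A library stood far above the highest NC library, and the log2 change was 1.57 ± 0.05 (SE, edgeR adjusted p = 6.63e-23). SNRPA (U1-A) and SNRPC (U1-C, which touches the intron start) changed by 0.99 and 0.94 on the log2 scale. SNRPC was not called once the trend with length was subtracted (0.05, edgeR adjusted p = 0.304), whereas SNRNP70 and SNRPA were. None of the 3 was called in the libraries labelled shSHCBP1, where their log2 changes lay between -0.06 (SNRPA) and -0.0008 (SNRNP70). Without TMM, SNRNP70 was called higher there too (0.15, edgeR adjusted p = 0.00546).

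The U2 genes went both ways in shTMEM45A libraries, with 5 of its 11 genes higher and 6 lower. These are 45.5% and 54.5%, where 37.3% and 41.3% of all genes tested were called, so calls in both directions are not particular to U2. SF3B1, the large scaffold that clamps the branch site, had 125, 139 and 135 CPM in set 2 and 137, 133 and 144 CPM in set 4 of the shTMEM45A libraries, against 348, 344 and 328 CPM in NC libraries. All 6 shTMEM45A libraries were below every NC library, with a log2 change of -1.33 ± 0.04 (SE, edgeR adjusted p = 4.32e-23). SF3A1, SF3A2, SF3B3 and SF3B2, further subunits of both complexes, were lower as well, with log2 changes of -1.13, -0.87, -0.74 and -0.55 in that order. SF3B5, a small subunit of the same SF3B complex, had 408, 370.0 and 416 CPM in set 2 and 385, 395 and 365 CPM in set 4 of the shTMEM45A libraries, against 143, 129.6 and 132 CPM in NC libraries. It went the opposite way to SF3B1, with no overlap and a log2 change of 1.53 ± 0.05 (SE, edgeR adjusted p = 2.44e-22). SF3B6, which contacts the branch adenosine, was higher by 1.20, SF3B4 by 0.71 and SF3A3 by 0.48. The 2 proteins bound to the U2 RNA itself also parted, SNRPB2 (B'') with 1.25 and its partner SNRPA1 (A') with -0.22.

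Among U2 genes, 5 were called lower and none higher in the libraries labelled shSHCBP1, where 15.9% and 15.2% of all genes tested were called. SNRPA1 had 199.6, 203 and 204 CPM in shSHCBP1_2 and 219, 216 and 222 CPM in shSHCBP1_1, against 282, 292 and 265 CPM in NC. The groups did not overlap, and the log2 change was -0.41 ± 0.04 (SE, edgeR adjusted p = 4.54e-09). SF3B2, with -0.35, and SF3B1, with -0.31, were lower under each of the 4 scalings. SF3B3 (-0.19) and SF3A1 (-0.11) were not called under all 4, and SF3A1 also lost its call in all but 1 of the 9 fits that left out an NC or shSHCBP1 library (edgeR adjusted p up to 0.14).

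SNRNP200 encodes the helicase of the U5 snRNP that unwinds U4 from U6 to activate the spliceosome. It had 233, 231 and 237 CPM in set 2 and 238, 224 and 229 CPM in set 4 of the shTMEM45A libraries, against 696, 678 and 674 CPM in NC libraries. Every shTMEM45A library held far less than every NC library, and the log2 change was -1.56 ± 0.03 (SE, edgeR adjusted p = 2.12e-26). In the libraries labelled shSHCBP1 it had 456, 461 and 469 CPM in shSHCBP1_2 and 480.1, 519 and 496 CPM in shSHCBP1_1, which lay between the other groups without touching either. The log2 change there was -0.51 ± 0.03 (SE, edgeR adjusted p = 1.57e-12). SNRNP40, another U5 protein, did not pass the test in shTMEM45A (log2 0.02, edgeR adjusted p = 0.715). With the trend with length subtracted it was called lower (-0.34, edgeR adjusted p = 7.85e-07). SNRNP27, of the U4/U6.U5 particle, was higher by 0.52 but also called lower with the trend subtracted (-0.34). Neither was called in shSHCBP1.

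Of the 3 genes of the U11/U12 particle, SNRNP35 and SNRNP25 were higher and SNRNP48 was lower in shTMEM45A libraries. Among all genes tested, 37.3% were called higher there and 41.3% lower. SNRNP35, the U11 counterpart of U1-70K, had 40.6, 37.7 and 40.2 CPM in set 2 and 31.5, 37.5 and 37.3 CPM in set 4 of the shTMEM45A libraries, against 9.99, 7.84 and 7.81 CPM in NC libraries. The groups were far apart at these low levels, with a log2 change of 2.13 ± 0.11 (SE, edgeR adjusted p = 1.72e-17). SNRNP25 had 179, 154 and 184 CPM in set 2 and 149, 143 and 151 CPM in set 4 of the shTMEM45A libraries, against 71.1, 69 and 72.4 CPM in NC libraries, again without overlap, and changed by 1.17 ± 0.06 (SE, edgeR adjusted p = 6.4e-18). With the trend with length subtracted, SNRNP25 was not called (-0.08, edgeR adjusted p = 0.186). SNRNP48, which helps to read the start of minor introns, changed by -0.44 ± 0.07 (SE, edgeR adjusted p = 8.57e-07). None of the 3 passed the test in shSHCBP1, where the log2 changes ranged from -0.08 to 0.11.

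**Figure D2:**
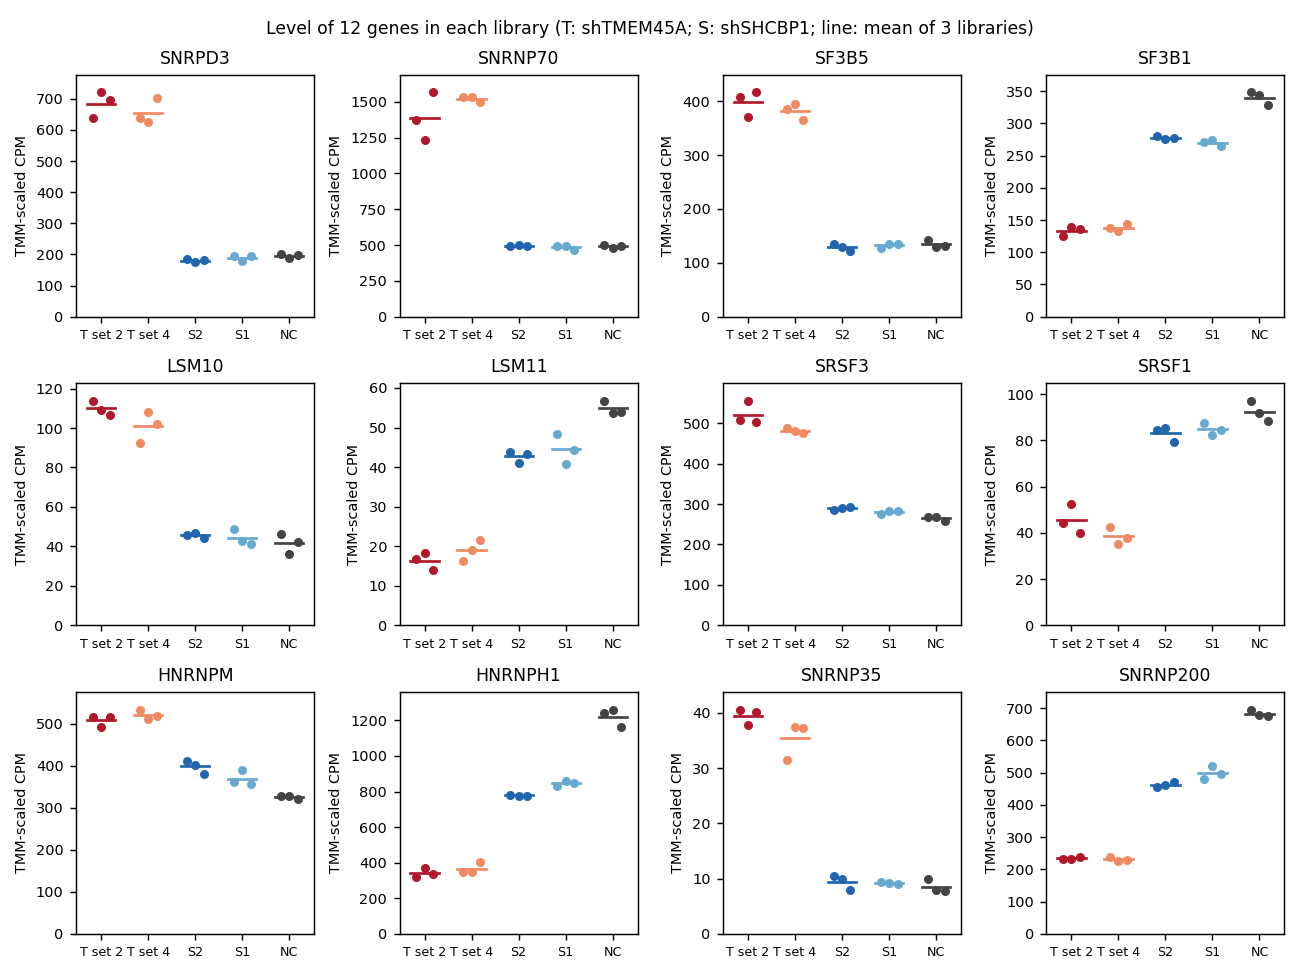
TMM-scaled CPM of 12 genes in each library, with the 3 libraries of a group as points and their mean as a line; groups run shTMEM45A set 2, set 4, shSHCBP1_2, shSHCBP1_1 and NC. SF3B5 and SF3B1, and LSM10 and LSM11, are pairs from the same complex that stand on opposite sides of NC in shTMEM45A libraries.

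LSM2 to LSM8, which form the ring on U6, were each called higher in shTMEM45A libraries, 7 of 7, as were 37.3% of all genes tested. Their log2 changes ran from 0.93 (LSM6) to 1.99 (LSM3). LSM3 had 295, 302 and 294 CPM in set 2 and 275, 289 and 281 CPM in set 4 of the shTMEM45A libraries, against 73.8, 73.4 and 71.5 CPM in NC libraries. The shTMEM45A libraries were well clear of NC, and the change was 1.99 ± 0.04 (SE, edgeR adjusted p = 2.86e-26). LSM4 had 658, 649 and 655 CPM in set 2 and 688, 674 and 638 CPM in set 4 of the shTMEM45A libraries, against 284, 281 and 292 CPM in NC libraries, also apart, with 1.21 ± 0.04 (SE, edgeR adjusted p = 6.35e-23). After subtraction of the trend with length, LSM4 and LSM8 turned to called lower (-0.16 and -0.40, edgeR adjusted p = 0.000119 and 1.69e-06). The other members of this ring stayed called higher, with changes from 0.18 (LSM5) to 0.82 (LSM6), and 0.68 for LSM3. LSM1, which replaces LSM8 in the cytoplasmic ring that promotes decapping, was higher by only 0.44 ± 0.12 (SE, edgeR adjusted p = 0.00213), and this call was lost without TMM and with the trend subtracted (edgeR adjusted p = 0.987).

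LSM10 and LSM11 are the pair of proteins that take the place of SNRPD1 and SNRPD2 in the U7 snRNP, which trims histone transcripts. They moved apart in shTMEM45A libraries. LSM10 had 114, 109 and 107 CPM in set 2 and 92.6, 108 and 102 CPM in set 4 of the shTMEM45A libraries, against 46.2, 36.3 and 42.1 CPM in NC libraries, and LSM11 had 16.7, 18.3 and 13.9 CPM in set 2 and 16.3, 19 and 21.6 CPM in set 4 of the shTMEM45A libraries, against 56.7, 53.7 and 54 CPM in NC libraries. Neither gene's libraries overlapped between the groups. LSM10 changed by 1.34 ± 0.07 (SE, edgeR adjusted p = 4.16e-17) and LSM11 by -1.64 ± 0.08 (SE, edgeR adjusted p = 6.31e-18). LSM12, an LSm-domain protein outside the rings, had the largest fall of the 73 genes tested, -1.80 ± 0.07 (SE, edgeR adjusted p = 2.83e-20). LSM14A and LSM14B, proteins of P-bodies, were lower with log2 changes of -0.36 and -0.57. For shSHCBP1, 4 of 13 LSm genes were called lower and 1 higher, where 15.9% and 15.2% of all genes tested were called. None of these LSm calls held under all 4 scalings. LSM11 fell most among them, with a log2 change of -0.33 ± 0.07 (SE, edgeR adjusted p = 0.00102).

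The SR genes had no common direction in shTMEM45A libraries, with 6 of 12 called higher and 5 lower, where 37.3% and 41.3% of all genes tested were called; the lower share is near that of all genes. SRSF6 and SRSF3, regulators of alternative exons, were among those higher. SRSF3 had 508, 555 and 502 CPM in set 2 and 488, 480.0 and 476 CPM in set 4 of the shTMEM45A libraries, against 268, 269 and 258 CPM in NC libraries, and SRSF6 had 248, 268 and 262 CPM in set 2 and 234, 244 and 265 CPM in set 4 of the shTMEM45A libraries, against 98.8, 111 and 101 CPM in NC libraries. Both stood above NC in every library, with 0.92 ± 0.04 (SE, edgeR adjusted p = 1.9e-19) and 1.29 ± 0.05 (SE, edgeR adjusted p = 1.57e-20). SRSF8 and SRSF7 were higher by 0.90 and 0.73. SRSF1, the founding SR protein, went the other way and had 44.3, 52.4 and 39.7 CPM in set 2 and 42.5, 35.4 and 37.9 CPM in set 4 of the shTMEM45A libraries, against 97.1, 92 and 88.3 CPM in NC libraries. Its log2 change was -1.14 ± 0.07 (SE, edgeR adjusted p = 4.21e-16). SRSF11 had 257, 285 and 253 CPM in set 2 and 261, 263 and 268 CPM in set 4 of the shTMEM45A libraries, against 470.4, 481 and 439 CPM in NC libraries, without overlap, and -0.81 ± 0.04 (SE, edgeR adjusted p = 9.31e-18). SRSF5 changed by 0.13, a call lost without NC replicate 3 (edgeR adjusted p = 0.0984) and turned to -0.06 without TMM. In shSHCBP1, 5 of 12 SR genes were called lower and 1 higher, where 15.9% and 15.2% of all genes tested were called. SRSF5, with -0.33 ± 0.04 (SE, edgeR adjusted p = 5.32e-07), was the SR gene that stayed lower under each of the 4 scalings.

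In shTMEM45A libraries 12 of 21 tested hnRNP genes were called lower and 4 higher, all of them under each of the 4 scalings, where 41.3% of all genes tested were called lower and 37.3% higher. HNRNPH1, which binds runs of G, had 319, 369 and 338 CPM in set 2 and 345, 346 and 405 CPM in set 4 of the shTMEM45A libraries, against 1242, 1261 and 1162 CPM in NC libraries. Each shTMEM45A library was below every NC library, and the log2 change was -1.79 ± 0.04 (SE, edgeR adjusted p = 1.53e-25). HNRNPL, which binds CA repeats, changed by -1.12 ± 0.04 (SE, edgeR adjusted p = 1.61e-21). HNRNPUL1 and its relative HNRNPU, a nuclear scaffold protein, were lower with log2 changes of -0.95 and -0.83. HNRNPU was not called with the trend with length subtracted (-0.01, edgeR adjusted p = 0.725). Those called higher were HNRNPA1L2, HNRNPUL2, HNRNPM and HNRNPAB. HNRNPM had 517, 491 and 516 CPM in set 2 and 534, 512 and 519 CPM in set 4 of the shTMEM45A libraries, against 329, 327 and 322 CPM in NC libraries, without overlap, and 0.66 ± 0.04 (SE, edgeR adjusted p = 6.86e-16). HNRNPUL2 was higher by 0.70 and HNRNPAB by 0.32. HNRNPUL2 overlaps a readthrough gene, which makes its count uncertain. Over all 25 genes the hnRNP share of counts was 0.785% in set 2, 0.849% in set 4 and 1.2% in NC.

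In the libraries labelled shSHCBP1, 12 of 21 hnRNP genes were called lower and 4 higher, where 15.9% and 15.2% of all genes tested were called, and 8 of the lower and 3 of the higher calls held under all 4 scalings. The 8 were HNRNPA1, HNRNPA2B1, HNRNPA3, HNRNPDL, HNRNPH1, HNRNPH3, HNRNPU and HNRNPUL1, and the 3 were HNRNPA1L2, HNRNPF and HNRNPM. HNRNPH1 had 781, 777 and 777 CPM in shSHCBP1_2 and 833, 858 and 851 CPM in shSHCBP1_1, against 1242, 1261 and 1162 CPM in NC. These libraries lay between shTMEM45A and NC, with a log2 change of -0.59 ± 0.04 (SE, edgeR adjusted p = 9.3e-12). HNRNPU (-0.41), HNRNPDL (-0.38) and HNRNPUL1 (-0.33) were lower as well. HNRNPM had 412, 401 and 381 CPM in shSHCBP1_2 and 362, 389 and 356 CPM in shSHCBP1_1, all above its NC libraries, and 0.23 ± 0.04 (SE, edgeR adjusted p = 1.76e-05).

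HNRNPA1, a repressor of exon inclusion, had 1661, 1776 and 1701 CPM in shSHCBP1_2 and 1963, 1982 and 1907 CPM in shSHCBP1_1, against 2650.3, 2468 and 2504 CPM in NC. All 6 libraries were below NC, with a log2 change of -0.47 ± 0.03 (SE, edgeR adjusted p = 9.02e-13). In shTMEM45A libraries it had 1787, 1884 and 1720.5 CPM in set 2 and 2154, 2120.4 and 2173 CPM in set 4, and changed by -0.37 ± 0.03 (SE, edgeR adjusted p = 5.31e-12). HNRNPA1L2, a retrocopy nearly identical to HNRNPA1, went the opposite way. It had 19.4, 20.8 and 17.1 CPM in set 2 and 17.1, 16.6 and 16.3 CPM in set 4 of the shTMEM45A libraries, against 3.96, 2.87 and 3.59 CPM in NC libraries, and 7.46, 6.66 and 6.96 CPM in shSHCBP1_2 and 5.24, 4.95 and 4.97 CPM in shSHCBP1_1. The log2 change was 2.36 ± 0.14 (SE, edgeR adjusted p = 4.27e-16) in shTMEM45A and 0.78 ± 0.14 (SE, edgeR adjusted p = 9.74e-05) in shSHCBP1. How reads that match both were assigned is not given in the sources used here, so the level of HNRNPA1L2 is uncertain. The 75 names of HNRNPA1 copies that were left out summed to 41.5 to 45.9 CPM in set 2, 55.5 to 59.0 CPM in set 4 and 54.3 to 59.8 CPM in NC, so these copies were not higher in shTMEM45A libraries. HNRNPCL1 to HNRNPCL4, which are relatives of HNRNPC, had 0 counts in every library.

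**Figure D3:**
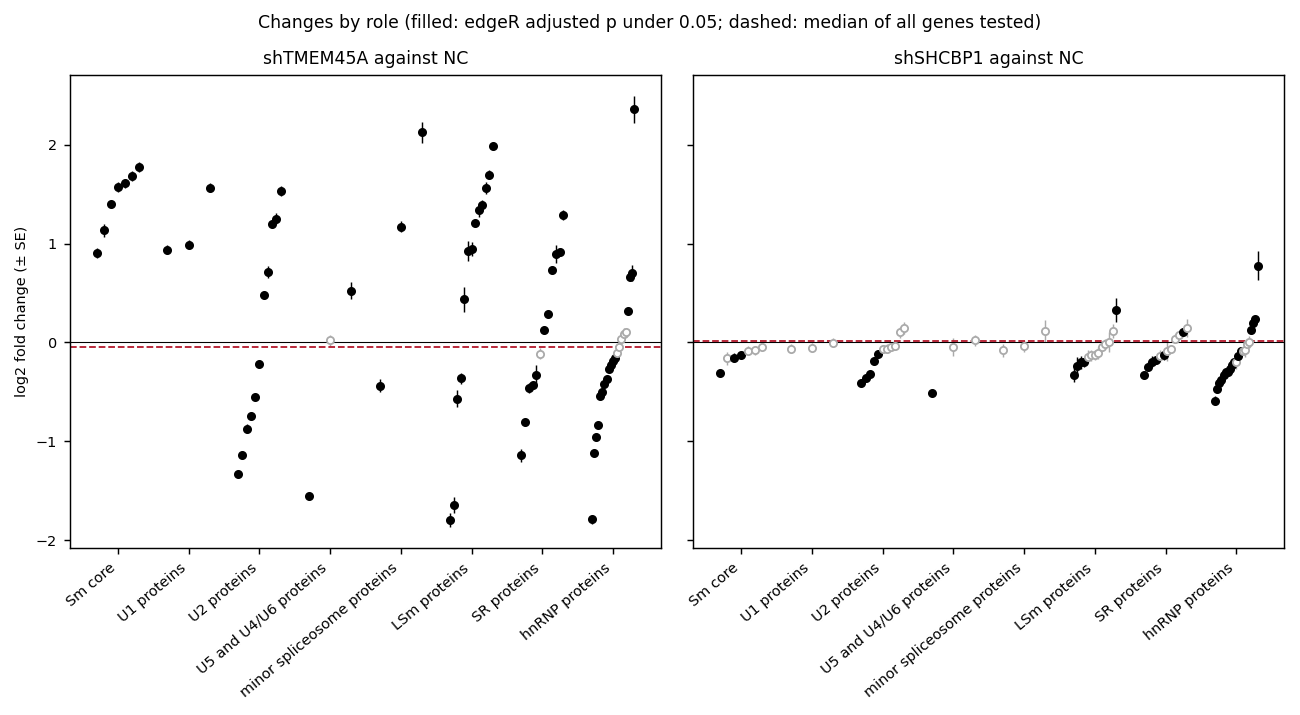
Log2 fold change (points, with SE) of the 73 genes by role, for shTMEM45A against NC (left) and shSHCBP1 against NC (right); filled points have an edgeR adjusted p under 0.05 and the dashed line is the median of all genes tested (-0.05 and 0.01). The left panel spans -1.80 to 2.36 with the Sm core and U1 proteins wholly above 0, and the right panel spans -0.59 to 0.78.

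**Figure D4:**
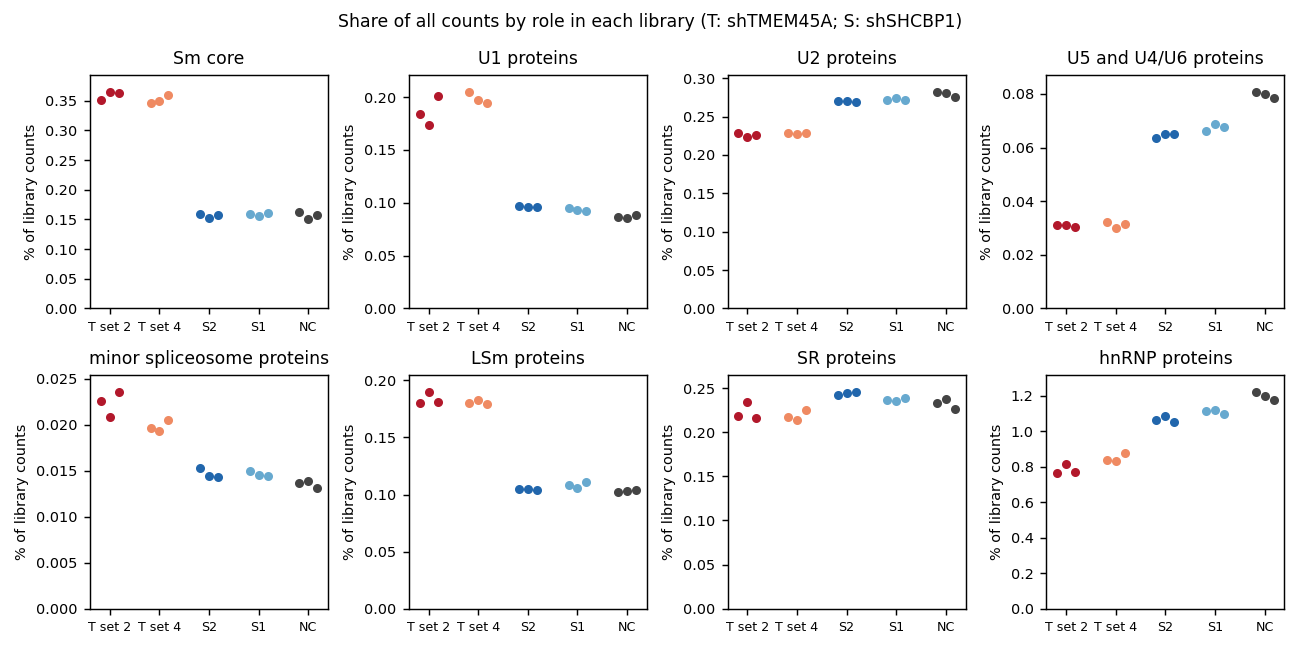
Percent of all counts of a library taken by the genes of each role, with 1 point per library; groups run shTMEM45A set 2, set 4, shSHCBP1_2, shSHCBP1_1 and NC. The Sm core and U1 shares of the shTMEM45A libraries lie above all other libraries, and their U5 and hnRNP shares lie below.

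The change in shTMEM45A libraries went with transcript length. Lengths were those of the mouse gene of the same symbol in GENCODE M21, an approximation available for 71 of the 73 genes. Spearman's rho of length and log2 change was -0.68 across the 71 genes and -0.47 across 12715 genes tested, as a description across genes that share the same libraries. In shSHCBP1 the same values were -0.29 and -0.03. The Sm core and LSm genes are short, with median lengths of 1055 and 876 nt, against 2426 nt for hnRNP genes and 2737 nt for all genes with a length. The running median of all genes over 401 neighbours in length was then subtracted in the fit. Of 71 genes, 29 were higher and 34 lower in shTMEM45A after this. Among all 12715 genes of that fit, 5009 were called higher and 4762 lower, so the share called higher is near that of all genes. All 7 tested Sm genes were still called higher, with a median of 0.38 in place of 1.57. The 13 LSm genes parted, with 6 called higher and 6 lower, and a median of 0.002 in place of 0.95. Of the 3 U1 genes, 2 were called higher. LSM4 (-0.16), LSM8 (-0.40), SNRNP27 (-0.34) and SRSF5 (-0.32) turned to called lower, and SNRNP25 (-0.08) and SRSF2 (-0.07) turned to below 0 without a call. HNRNPU (-0.01), SNRPC (0.05), LSM1 (0.002) and SRSF12 (-0.13) lost their calls without a change of sign. Genes called only after the subtraction were SNRNP40 (-0.34), HNRNPD (-0.24) and HNRNPH3 (-0.18), lower, and HNRNPF (0.17) and HNRNPA0 (0.12), higher. SNRNP200, with -0.78 in place of -1.56, and LSM11, with -0.95 in place of -1.64, were still called lower after the subtraction. HNRNPH1 (-1.76), LSM12 (-1.90) and HNRNPL (-1.22) stayed lower, and SNRPD3 (1.42) and SNRNP35 (1.39) stayed higher. SF3B5 gave 1.92, a value that rests on the 3841 nt annotated for the mouse gene, and the length of the human transcript was not used here. RNA integrity and fragment sizes were not analysed here, and their part in these changes was not tested.

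**Figure D5:**
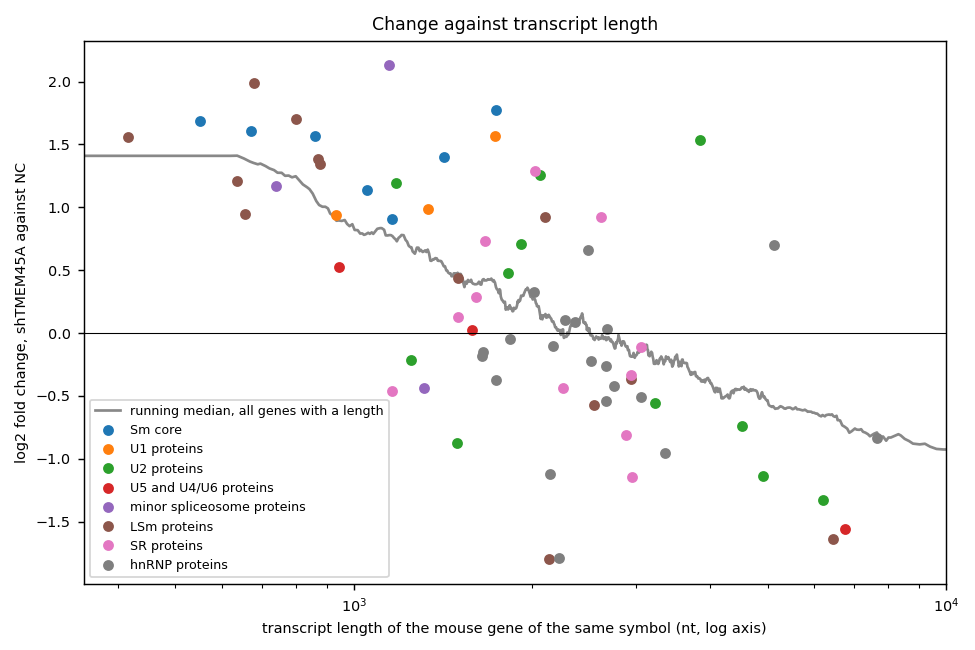
Log2 fold change of 71 splicing genes in shTMEM45A against NC, coloured by role, against the transcript length of the mouse gene of the same symbol in nt (log axis); the grey line is the running median of 12715 genes. The line falls with length, and the Sm core and most LSm genes lie toward its short end while HNRNPH1 and LSM12 lie far below it.

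The direct test of shTMEM45A against shSHCBP1 called 42 of the 73 genes higher and 24 lower, where 35.2% and 44.1% of all genes tested were called. The 5 largest differences upward were SNRNP35 (2.01), LSM3 (2.0), LSM7 (1.90), SNRPD3 (1.86) and SNRPE (1.84). The 5 largest downward were LSM12 (-1.59), LSM11 (-1.31), HNRNPH1 (-1.20), HNRNPL (-1.10) and SNRNP200 (-1.05). These 10 kept their call and direction under every other setting tried, the leaving out of single libraries included. Library totals without TMM gave 35 higher and 38 lower and moved the median of all genes tested to -0.47, against -0.12 with TMM.

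Between shSHCBP1_2 and shSHCBP1_1, 1 of the 73 genes was called, HNRNPA1, with a log2 difference of -0.19, where 0.336% of all genes were called lower and 0.499% higher. The fit of only these groups called 5 higher and 16 lower, and DESeq2 called 7 lower. Between shTMEM45A set 2 and set 4, 1 gene was called higher and 7 lower, where 1.95% and 3.32% of all genes were called, and the fit of only these groups called 0 higher and 2 lower. SRSF9 differed most, with 162, 132 and 138 CPM in set 2 and 186, 178 and 184 CPM in set 4. The libraries did not overlap, with a log2 difference of -0.34 ± 0.06 (SE, edgeR adjusted p = 0.000417). The others called lower in set 2 were HNRNPA1 (-0.26), SNRNP40 (-0.24), SF3A2 (-0.23), HNRNPL (-0.20) and HNRNPA0 (-0.19), with HNRNPC (-0.15), while SNRNP25 (0.23) was higher. Of these, the HNRNPA1 call between the shSHCBP1 sets was lost without shSHCBP1_1 replicate 1 or 2 or shSHCBP1_2 replicate 1 or 3 (edgeR adjusted p up to 0.0982). The HNRNPA0 and HNRNPL calls between the shTMEM45A sets were lost without the set 4 library ending in 1, the SF3A2 call without set 2 replicate 2 or the set 4 library ending in 2, and the SNRNP25 and SNRNP40 calls without any of 4 and 3 libraries (adjusted p up to 0.063, 0.057, 0.0567, 0.114 and 0.0993 with edgeR, in the order named).

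The wider splicing machinery, taken as 6 lists of other genes, also held calls in both directions in shTMEM45A libraries, except for the kinase and import list. Beside the counts of these lists stand the 37.3% of all genes tested that were called higher and the 41.3% called lower, and a count near those shares is no result about its list. The trend with length was not subtracted from the values of these lists, and its part in them was not tested. Scalings other than TMM were not tried on them. Of 46 genes of spliceosome assembly and catalysis, 27 were called higher and 17 lower, with a median log2 change of 0.29 against -0.05 for all genes tested. PRPF31, which joins U4/U6 to U5, rose by 1.75, and CWC15, of the catalytic complex, by 1.50. DDX39B, a helicase of assembly and export, averaged 45.2 CPM in set 2, 69.0 CPM in set 4 and 353 CPM in NC (means of 3), a log2 change of -2.66. PRPF8, the U5 protein at the catalytic centre and the partner of SNRNP200, changed by -1.75. All 8 kinases and import factors of SR proteins were called lower, with a median of -0.60. SRPK2, a kinase of SR proteins, changed by -1.70 and TNPO3, their import receptor, by -0.85.

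Among 34 tested SR-related and regulatory genes, 9 were called higher and 18 lower in shTMEM45A libraries, among them RALY (0.68) higher and SRRM2 (-1.43) lower. ESRP2, an epithelial splicing regulator, was also called lower at levels under 2 CPM in every group mean. The machinery that loads Sm rings had 5 of 17 genes called higher and 7 lower. GEMIN7 and GEMIN6, members of the SMN complex, rose by 2.97 and 1.34, while PRMT5, which methylates Sm proteins, changed by -1.89 and GEMIN5, which recognises the snRNA, by -0.94. Of 7 tested minor spliceosome genes 5 were higher and 2 lower, with ARMC7 (1.76) and SCNM1 (1.52) above NC, and RNPC3 (-2.14) and PDCD7 (-0.25) below. Of 11 partners of LSm proteins 4 were higher and 5 lower. EDC4, the decapping scaffold, averaged 10.1 CPM in set 2, 11.5 CPM in set 4 and 104 CPM in NC (means of 3), and PATL1, which bridges the LSm ring to decapping, changed by -1.36. ZNF473, a U7 partner in histone processing, rose by 1.24 and DCP1B, a decapping cofactor, by 1.05.

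In the libraries labelled shSHCBP1, where 15.2% of all genes tested were called higher and 15.9% lower, the assembly and catalysis list had 13 of 46 genes called higher and 11 lower, and the SR-related and regulatory list 2 of 34 higher and 18 lower. PRPF8 (-0.56) and U2AF1 (-0.56) were the assembly genes with the largest falls, and BCAS2 (0.51) and SLU7 (0.42) those with the largest rises. NONO (-0.47) and SRRM2 (-0.41) were lower and SCAF1 (0.25) was higher. The kinase and import list had 1 of 8 higher and 4 lower, with CLK1 at -0.32. The Sm loading list had 2 of 17 higher and 4 lower, with GEMIN7 at 0.60 and CLNS1A at -0.35. The minor spliceosome list had 2 of 7 higher and 1 lower, with ARMC7 at 0.83 and ZRSR2 at 0.34. The list of LSm partners had 4 of 11 higher and 3 lower. Its named genes were ZNF473 (0.76), DCP1B (0.70), EDC4 (-0.24) and DCP2 (-0.23). No scaling other than TMM was tried on these lists. Among the 73 splicing genes, library totals gave 19 higher and 14 lower in place of 6 and 30. The list counts and the small changes named here may therefore rest on TMM.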

How the data were processed

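Per the labels' protocols, messenger RNA was selected on poly-T beads and sequenced as paired ends from a NEBNext Ultra kit, which does not mark strand, so antisense and overlapping genes cannot be told apart. The authors deposited whole-number counts per gene symbol in 2 tables of 58735 rows. Which aligner and counter made them is not given in the sources used here. Mouse is the organism in the labels and mm10 the build in the submitters' processing notes, whereas the symbols are human; the build behind the counts is unknown and no coordinate or sequence was used. Names on more than 1 row or turned into dates (200 names on 1768 rows, no splicing gene described here) were left out.

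Genes were kept with filterByExpr (minimum count 10, minimum total 15), scaled by TMM, and fitted as 5 group means over all 15 libraries with edgeR 4.0.16 in R 4.3.3 (quasi-likelihood F test, Benjamini-Hochberg over 19051 genes, threshold 0.05). Dividing the absolute log2 fold change by the root of F gave its SE. The 9 comparisons were the mean of both sets of each target against NC, each set against NC, shTMEM45A against shSHCBP1, and set against set. The script was tested on simulated data. Alternatives were other scalings and filters, only the groups compared, DESeq2 1.42.0, the replicate number as a block, leaving out each library, and subtraction of a length trend.

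Same-numbered libraries of different groups did not deviate together (18 pairs, correlation -0.035 to 0.038), so no pairing by number was seen. The check covers only the 12 libraries that carry a number, and a small shared effect could escape it. Libraries of a group differed by more than sampling noise (chi-square per degree of freedom 1.742 to 9.191 over 15 pairs). The values were 3.634 to 9.191 within the shTMEM45A sets and 1.742 to 2.99 within NC and the shSHCBP1 sets. The fit used the same estimate of the spread for all groups. Its SE and p-values therefore do not speak for the spread of the groups compared alone. Genes and lists were chosen with earlier results of these data known. Named genes are, per target, the 10 largest rises and 10 largest falls called in both sets, per role the gene with the most counts and up to 2 each way, up to 5 each way between sets and between targets, and up to 2 each way per list (1 gene of a list is not reported here); members outside this rule are named to complete a role group. Levels of fibroblast and endothelial marker lists were 31.2 to 56.7 CPM and 1.03 to 3.03 CPM over all libraries, and those of 8 immune markers 6.42 to 16.3 CPM.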

Additional observations from a re-analysis of the deposited data

Results flagged for a closer look

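Some results differed between hairpin sets of a target or between targets by a test of the difference itself. Between shSHCBP1_2 and shSHCBP1_1, 1 splicing gene differed, HNRNPA1, with a log2 difference of -0.19, where 0.336% of all genes were called lower and 0.499% higher. Between shTMEM45A set 2 and set 4, 8 genes differed: HNRNPA0 (-0.19), HNRNPA1 (-0.26), HNRNPC (-0.15), HNRNPL (-0.20), SF3A2 (-0.23), SNRNP40 (-0.24) and SRSF9 (-0.34) were lower in set 2, and SNRNP25 (0.23) was higher. Of all genes tested, 3.32% were called lower in set 2 and 1.95% higher. Between shTMEM45A and shSHCBP1, 66 of the 73 genes differed, where 35.2% of all genes tested were called higher and 44.1% lower. The last comparison spans both count tables, so the hairpin target and the table cannot be told apart in it.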

How the results depend on the processing

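Among the comparisons with NC, the counts of splicing genes called for shTMEM45A and for each of its sets stayed within 1.5 times under every alternative that gave a value. The counts for shSHCBP1 did not. For the mean of both sets, 6 genes were higher and 30 lower. Scaling by DESeq2's size factors gave 3 and 47, library totals 19 and 14, DESeq2 2 and 49, and the length trend 3 higher. For shSHCBP1_2, with 8 higher and 31 lower, the same settings gave 3 and 47, 17 and 15, 3 and 48, and 4 higher. For shSHCBP1_1, with 2 higher and 23 lower, size factors gave 1 higher, library totals 14 and 10, DESeq2 35 lower, no filter 1 higher, the fit of only the groups compared 5 higher, the length trend 1 higher, and the fit of genes with a length but no trend, chosen after seeing the data, 1 higher. For shTMEM45A against shSHCBP1, library totals gave 38 lower in place of 24. Between the shSHCBP1 sets edgeR called 0 higher and 1 lower, against 6 and 15 at an unadjusted p under 0.05. There the fit of only the groups compared gave 5 and 16, DESeq2 7 lower and the length trend 5 lower. Between set 2 and set 4 (1 higher, 7 lower), the fit of only the groups compared gave 0 and 2, and the stricter filter with a minimum count of 50 gave 2 higher, DESeq2 2 higher, the length trend 4 higher and genes with a length alone 2 higher. Over all genes, library totals gave 5786 higher and 1187 lower for shSHCBP1 in place of 2894 and 3038, 5552 and 1243 for shSHCBP1_2 in place of 2980 and 2941, and 4080 and 658 for shSHCBP1_1 in place of 1779 and 2008. For shSHCBP1_1, DESeq2 gave 1168 and 3115, size factors 3091 lower and the fit of only the groups compared 2728 higher. The length trend, fitted on fewer genes, gave 4762 lower for shTMEM45A in place of 7866, 4590 for set 2 in place of 7580, 4507 for set 4 in place of 7402, and 4849 for shTMEM45A against shSHCBP1 in place of 8408. Between the shSHCBP1 sets (95 higher, 64 lower), only the groups compared gave 894 and 780, DESeq2 188 and 245, library totals 163 and 39, no filter 101 lower, the length trend 147 lower, and leaving out a library of either set 13 to 31 higher and 14 to 24 lower. Between set 2 and set 4 (372 higher, 632 lower), only the groups compared gave 44 and 85, and 235 and 211 were higher without the set 4 library ending in 2 or in 3. The cause of these shifts was not tested.

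Leaving out each library in turn, shSHCBP1_1 gave 1 to 2 higher (1 without NC replicate 2, shSHCBP1_1 replicate 1 or shSHCBP1_1 replicate 2) and shSHCBP1_2 gave 5 to 7 higher (5 without NC replicate 1, shSHCBP1_2 replicate 1 or shSHCBP1_2 replicate 3). Between the shSHCBP1 sets it gave 0 to 1 lower, with 0 without shSHCBP1_1 replicate 1 or 2 or shSHCBP1_2 replicate 1 or 3. Between set 2 and set 4 it gave 0 to 2 higher and 4 to 12 lower, with 12 lower without set 2 replicate 2 and 4 lower without the set 4 library ending in 1. Other counts of splicing genes stayed within 1.5 times.

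Signs that turned under library totals in shSHCBP1 were HNRNPD (0.063), HNRNPL (0.13), HNRNPR (0.012), LSM3 (0.14), LSM4 (0.10), SF3A1 (0.041), SF3B6 (0.12), SNRNP70 (0.15), SNRPD1 (0.027) and SRSF9 (0.024), and in shTMEM45A HNRNPA0 (-0.16), SNRNP40 (-0.17) and SRSF5 (-0.064). Under the length trend in shTMEM45A they were LSM4 (-0.16), LSM8 (-0.40), SNRNP25 (-0.079), SNRNP27 (-0.34), SNRNP40 (-0.34), SRSF2 (-0.069) and SRSF5 (-0.32). Of the called genes, 16 of 36 for shSHCBP1 and 56 of 66 for shTMEM45A kept call and direction under every setting other than those added after seeing the data. A gene not called in either setting was not counted as turned.

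With the replicate number as a block, fitted on the 12 libraries that carry one, shSHCBP1 gave 7 higher and 30 lower and shTMEM45A set 2 gave 36 and 29, and no count of splicing genes moved by over 1.5 times. No block could be fitted for set 4, whose columns could not be tied to numbered labels. Depth limits the genes at low counts, where a fold change rests on few reads.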
